A study of Homo sapiens with 6 samples.

Results

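The nuclear-encoded subunits of respiratory complexes III, IV and V were taken as every gene of the expression table whose symbol begins with UQCR, COX4, COX5, COX6, COX7, COX8 or ATP5. Symbols with a hyphen and pseudogene symbols ending in P and digits were left out. The rule gave 45 of 50868 genes, with 9 in complex III, 17 in complex IV and 19 in complex V. The values come from mRNA sequencing of B4G12 cells, an immortalised line selected as a clone from human corneal endothelium, the cell layer that keeps the cornea clear by pumping fluid out of it. A control siRNA was used for 3 libraries (siControl), and for the other 3 an siRNA to deplete NAMPT (siNAMPT), the enzyme of the rate-limiting step of NAD salvage from nicotinamide. All 6 libraries have the same wild-type genotype label and no other agent is named. The sources used here give no siRNA sequence, dose or time of treatment. No label says that the replicates were separate cultures, and p-values therefore cover only the spread among these 6 libraries, which may be technical.

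Complex III passes electrons from ubiquinol to cytochrome c, complex IV passes them from cytochrome c to oxygen, and both pump protons across the inner mitochondrial membrane. Complex V, the ATP synthase, lets the protons flow back through a rotating ring and makes ATP. Some of their central subunits are encoded by mitochondrial DNA (cytochrome b, the core subunits of cytochrome oxidase and subunit a of the ATP synthase). The genes described here supply most of the remaining subunits from the nucleus. Corneal endothelium is rich in mitochondria, and its fluid pump depends on ATP.

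Total counts were 19510796 to 22364717 per library, and levels are given as CPM, counts relative to the library size after TMM scaling. A count of 3, the floor for a gene not seen, is 0.134 to 0.154 CPM. NAMPT was at 163, 169.8 and 184 CPM in siControl and 26.7, 29.02 and 29.6 CPM in siNAMPT, a log2 fold change of −2.60 (SE 0.07, Benjamini-Hochberg adjusted p = 2.60e-06 from the quasi-likelihood F-test of edgeR, exact two-sided permutation p = 0.1, the smallest that 3 against 3 allows). Of 14 corneal endothelial markers 6 lay under 1 CPM in every library, among them COL8A2, SLC4A4 and ZP4, and TFAP2B had no count. The 14 summed to 1684 to 1726 CPM in siControl and 1657 to 1787 CPM in siNAMPT. Of 10 epithelial markers 8 reached 1 CPM in at least 1 library, with KRT5 and KRT14 the most abundant and KRT12 at 0, and they summed to 4538 to 4893 CPM in siControl and 5119 to 5802 CPM in siNAMPT. The 6 stromal markers, with KERA at 0, summed to 163 to 203 and 248 to 309 CPM. Nearly all of this was ALDH3A1, at 162 to 202 CPM in siControl and 245 to 307 CPM in siNAMPT. Of the 6, 4 lay under 1 CPM in every library. The leukocyte markers, with PTPRC at 0 in siControl, summed to 7.36 to 10.2 and 17.8 to 20.9 CPM. Nearly all of that was CD68, at 7.36 to 10.2 CPM in siControl and 17.7 to 20.8 CPM in siNAMPT. The 4 melanocyte markers, with MLANA and TYR at 0, summed to 1.46 to 2.07 and 1.85 to 2.92 CPM. The part of these marker differences in the results that follow was not tested.

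Nuclear genes of the respiratory chain are often described as targets of the transcription factors NRF1 and GABP, an ETS factor, and many have SP1 boxes in place of a TATA box. RefSeq promoters (GRCh38.p14, 250 bases before to 50 after each start) were found for 35 of the 45 genes, and letters of these factors' motifs were searched on both strands. The GABP core CCGGAAG was in 14 of 35 (40%), against 12.2% of 27305 genes with a promoter of the same length. The NRF1 motif was in 9 (25.7%) against 6.98%, the SP1 box GGGCGG in 22 (62.9%) against 48.3%, the YY1 motif AAGATGGCG in 2 (5.71%) against 2.14%, and the ERR motif TCAAGGTCA in 0 against 0.432%. A match describes the letters and is no measured binding site. The promoters of 3 genes that were lower in siNAMPT, COX7C, COX6A1 and UQCR10, are printed to show how they differ. COX7C had the largest change among the 45, COX6A1 has both GABP and SP1 letters, and UQCR10 has no complete motif in the stretch shown. Capitals mark the motif matches, all sequences run 5′ to 3′ on the plus strand, and the coordinates are chr5:86617691-86617933, chr12:120437863-120438112 and chr22:29767119-29767368 in that order.
COX7C: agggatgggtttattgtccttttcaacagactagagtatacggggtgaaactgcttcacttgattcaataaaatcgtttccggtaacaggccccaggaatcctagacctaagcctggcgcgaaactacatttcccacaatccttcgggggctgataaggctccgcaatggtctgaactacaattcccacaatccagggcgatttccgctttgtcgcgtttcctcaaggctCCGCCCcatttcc
COX6A1: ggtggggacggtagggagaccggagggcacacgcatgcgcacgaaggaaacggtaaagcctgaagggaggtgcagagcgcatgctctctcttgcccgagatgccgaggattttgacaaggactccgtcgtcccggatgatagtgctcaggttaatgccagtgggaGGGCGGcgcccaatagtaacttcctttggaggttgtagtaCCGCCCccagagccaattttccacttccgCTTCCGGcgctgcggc
UQCR10: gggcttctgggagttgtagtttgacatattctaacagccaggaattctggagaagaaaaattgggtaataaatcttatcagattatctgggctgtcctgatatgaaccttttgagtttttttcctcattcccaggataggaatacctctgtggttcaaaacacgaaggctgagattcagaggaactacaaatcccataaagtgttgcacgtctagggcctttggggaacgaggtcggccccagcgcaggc
The capitals in COX7C are an SP1 box beginning 20 bases before the RefSeq start; the stretch printed for COX7C stops 7 bases short of that start. COX6A1 has SP1 boxes beginning 85 and 45 bases before it and a GABP core beginning 16 bases before it. The 300-base window of UQCR10 holds an NRF1 motif that is not complete in the printed stretch, which stops at the start. The last printed letters match the beginning of that motif and are left in lower case. Whether the match runs across the start or lies wholly after it was not tested.

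Most of these genes differed little between the groups. Of the 45, 39 passed the filter on low counts and were tested, 2 rose, 9 fell and 28 did not pass the test (adjusted p under 0.05 by edgeR). The 11 called genes were 28.2% of those tested, against 42.7% of all 15213 genes tested (20.8% higher and 21.9% lower). Of the 39, 38 had at least 30 CPM, and among all 6334 genes at that level 50.8% were called. The median log2 fold change was −0.08 and the median size of a change, without its sign, was 0.11 on the log2 scale, against 0.00 and 0.31 over all genes tested. The 95% interval of the log2 fold change lay within 1.5-fold either way for 35 of the 39, including all 28 uncalled genes, against 44.4% of all genes. Libraries of the groups did not overlap for 18 of the 39 (12 lower and 6 higher in siNAMPT), against 54.9% of all genes. In bulk libraries a level per cell and the share of cells that express a gene cannot be told apart. The count of fallers depended on scaling by gene length. With an offset for gene length fitted in each library it was 15, with UQCRH, UQCRHL, UQCR11, COX5B, COX8A and ATP5ME added, while 2 rose. The length used was that implied by the deposited FPKM, for most genes the sum of all distinct annotated exons and not a transcript length. Without siControl replicate 1 or without siControl replicate 3 the total called was 7. Without siNAMPT replicate 1, UQCRH, COX4I1 and COX8A (lower) and ATP5PO (higher) were also called (adjusted p = 0.0293 to 0.0484). Without siNAMPT replicate 2 COX6C was called as higher (adjusted p = 0.0228), and without siControl replicate 2 so was ATP5MF (adjusted p = 0.0175).

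**Figure D1:**
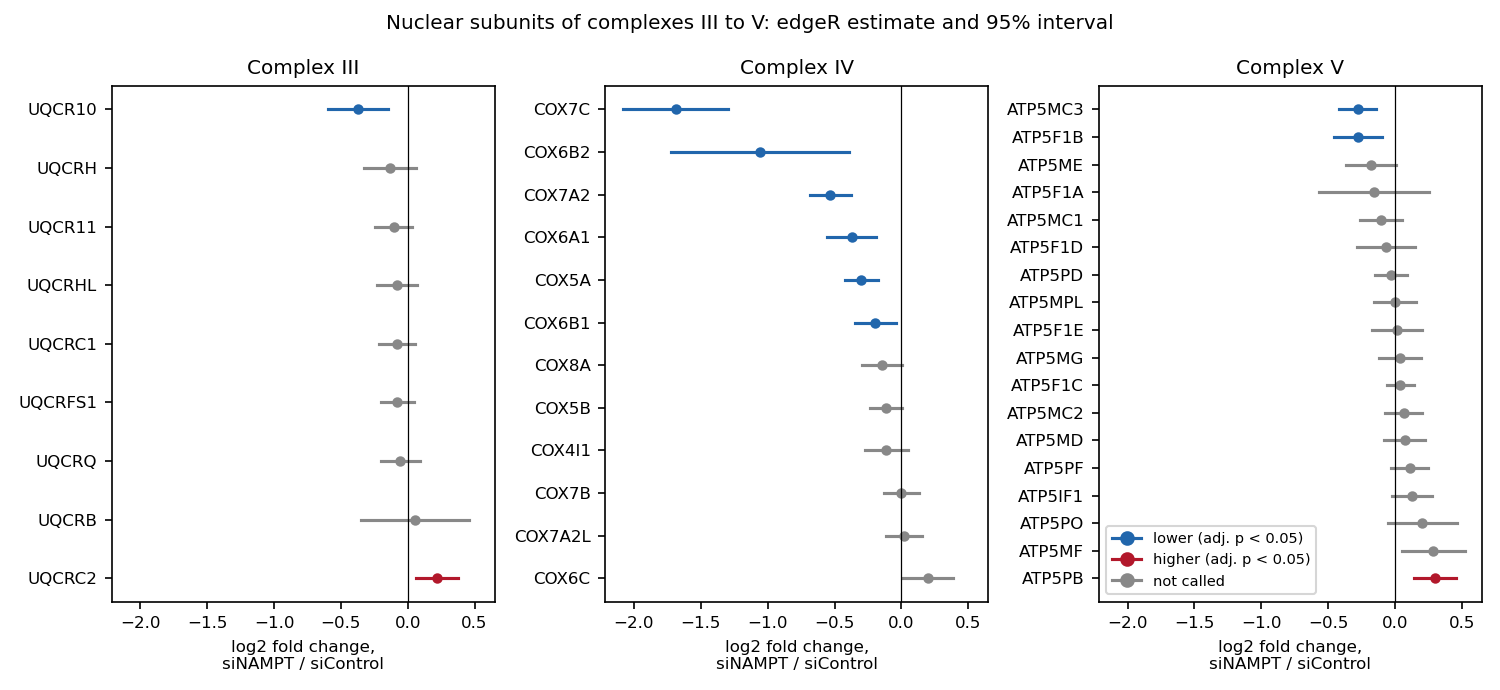
Log2 fold change (siNAMPT over siControl, horizontal axis) of each of the 39 genes tested, in a panel for each complex, with lines for the 95% interval. Blue genes fell, red genes rose and grey genes were not called. Most intervals lie close to 0, and COX7C stands far to the left at −1.69.

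Complex III had 1 riser and 1 faller among 9 genes, all tested (22.2% called, against 42.7% of all genes). UQCRC1 and UQCRC2 are the large core proteins that face the matrix. Gene positions are given on GRCh38, as in the expression table. UQCRC2 (ENSG00000140740, chr16:21952660-21983660) was at 243, 264 and 224 CPM in siControl and 279, 284 and 288 CPM in siNAMPT, so that every siNAMPT library lay above every siControl library. It rose by 0.22 on the log2 scale (SE 0.07, adjusted p = 0.0317). This call was lost without the filter on low counts (adjusted p = 0.0579) and when any library but siControl replicate 2 was left out (adjusted p = 0.0536 to 0.0843). UQCRC1 had 249, 244 and 225 CPM against 218, 230.5 and 232 CPM, which overlap, and a log2 fold change of −0.08 (95% interval −0.22 to 0.06).

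UQCR10, a small membrane subunit of complex III (ENSG00000184076, chr22:29767369-29770413), was the faller. It was at 171, 168 and 165 CPM in siControl and at 110.3, 135 and 144 CPM in siNAMPT. The siControl libraries lay close together, and siNAMPT replicate 1 was the lowest of all. Its log2 fold change was −0.37 (SE 0.10, adjusted p = 0.0175), and without siControl replicate 1 the adjusted p was 0.0515, the highest of the 14 alternative fits (lowest 0.0043).

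The other 6 genes of complex III were not called. UQCRFS1, the Rieske iron-sulfur protein that hands electrons to cytochrome c1, had 187, 188 and 179.8 CPM against 184, 171 and 171 CPM (log2 fold change −0.08, 95% interval −0.20 to 0.05). UQCRH, the hinge protein next to cytochrome c1, and its near-identical retrocopy UQCRHL may share reads. Their summed level was 199 ± 3.18 CPM in siControl and 183 ± 16.7 CPM in siNAMPT (mean ± SD, n = 3 each), with overlap. UQCRQ and UQCR11, small supernumerary subunits, had log2 fold changes of −0.05 and −0.11. UQCRB, which helps form the ubiquinone site, was the least certain of the 9, with 92.1, 85.8 and 64.5 CPM against 65.2, 94.1 and 92.4 CPM. Here 1 library in each group was low, and the 95% interval of its log2 fold change ran from −0.35 to 0.46.

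CYC1, cytochrome c1, carries haem c1 of complex III and is encoded in the nucleus but falls outside the symbol rule. It was at 312, 310.2 and 282 CPM in siControl and at 158, 156 and 144 CPM in siNAMPT. The groups were far apart, and the log2 fold change was −0.98 (SE 0.06, adjusted p = 4.41e-05), larger in size than that of any complex III gene inside the rule. Its partner outside the complex, CYCS, the soluble electron carrier cytochrome c, had 228, 269 and 288 CPM against 246, 287 and 275 CPM and was not called (log2 fold change 0.04, SE 0.10).

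Complex IV had 6 fallers and no riser among the 12 of its 17 genes that were tested, against 21.9% lower and 20.8% higher over all genes. Without the isoforms of other tissues, of which the scarce COX6B2 was tested, 5 of 11 fell. At an unadjusted p under 0.05, 7 of the 12 passed, against 7803 of all 15213 genes tested. The addition was COX6C, with a higher level. The median log2 fold change of the 12 was −0.17. COX7C, a short membrane subunit (ENSG00000127184, chr5:86617904-86620962), fell most. It was at 175, 123 and 149.8 CPM in siControl and at 50.3, 36.5 and 51.8 CPM in siNAMPT. The lowest siControl library, replicate 2, was far above the highest siNAMPT library. The log2 fold change was −1.69 (SE 0.17, 95% interval −2.08 to −1.29, adjusted p = 0.0003), and the level fell by 69.0%. COX7C counts made up 7.87% of the counts of nuclear complex IV genes in siControl and 2.85% in siNAMPT.

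The remaining members of the module that joins MT-CO2 during assembly did not pass the test. COX5B, which binds zinc, was at 145, 139.6 and 143 CPM against 135, 130.4 and 129 CPM. The groups did not overlap, but the log2 fold change was only −0.11 (adjusted p = 0.106). COX6C was at 74.6, 74.0 and 73.4 CPM against 85.6, 76.4 and 93.0 CPM, again without overlap, with a log2 fold change of 0.20 (SE 0.08, adjusted p = 0.0787). COX8A had 557, 538 and 509 CPM against 519, 449 and 483 CPM (log2 fold change −0.14, adjusted p = 0.112). COX7B had 229, 219 and 229 CPM against 235, 212 and 229 CPM, a log2 fold change of −0.00 with a 95% interval from −0.13 to 0.13.

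All 3 tested members of the module that joins MT-CO3 fell, against 21.9% lower over all genes tested. COX7A2, the widely expressed isoform of subunit 7A (ENSG00000112695, chr6:75237675-75250323), was at 65.9, 72.8 and 69.7 CPM in siControl and 50.1, 47.0 and 47.1 CPM in siNAMPT. The groups were separated by more than the spread within either, and the log2 fold change was −0.53 (SE 0.07, adjusted p = 0.0007). COX6A1, the widely expressed form of subunit 6A (ENSG00000111775, chr12:120438090-120440742), had 242, 237 and 209 CPM against 192, 171 and 169 CPM. Its log2 fold change was −0.37 (SE 0.08, adjusted p = 0.0074). The expressed pseudogene COX6A1P2 was also lower (−0.60, adjusted p = 0.0164), and reads of the pair may be shared; together they had 258 ± 18.8 CPM in siControl and 196 ± 13.8 CPM in siNAMPT (mean ± SD, n = 3 each). COX6B1, which faces the intermembrane space (ENSG00000126267, chr19:35648223-35658861), was at 87.4, 96.1 and 91.6 CPM against 84.2, 76.4 and 79.7 CPM. Its groups were apart only narrowly, the log2 fold change was −0.20 (SE 0.07, adjusted p = 0.0463), and 9 of 14 alternative fits lost the call. Among these were all fits without 1 library except that without siNAMPT replicate 1 (adjusted p = 0.054 to 0.147).

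COX4I1 and COX5A join MT-CO1 early in assembly. COX5A (ENSG00000178741, chr15:74919791-74938168) was at 129.8, 127 and 130.4 CPM in siControl and 107, 102 and 106 CPM in siNAMPT. The libraries of each group lay within a few CPM of each other, and COX5A fell by 0.30 on the log2 scale (SE 0.05, adjusted p = 0.0031). COX4I1 was at 186, 180.4 and 178 CPM against 185, 158 and 161 CPM, with siNAMPT replicate 1 among the siControl values, and a log2 fold change of −0.11 (95% interval −0.27 to 0.05). COX7A2L, a relative of COX7A2 that links complexes III and IV in supercomplexes, had 62.9, 64.6 and 63.6 CPM against 63.3, 63.6 and 66.7 CPM. It was not called, with a log2 fold change of 0.02 (95% interval −0.12 to 0.15). NDUFA4, a subunit of complex IV outside the symbol rule, had a log2 fold change of 0.10 (SE 0.13, adjusted p = 0.57).

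Of the 6 isoforms known mainly from other tissues, 5 had no count in any library: COX4I2 of lung, COX6A2 and COX7A1 of heart and skeletal muscle, and COX7B2 and COX8C of testis. COX6B2, a testis isoform, was seen at 21, 15 and 18 counts in siControl and 8, 7 and 11 counts in siNAMPT. It was thus under 1 CPM in every library, its log2 fold change was −1.06 (SE 0.29, adjusted p = 0.0208), and DESeq2 did not call it (adjusted p = 0.116, against 0.021 to 0.0722 in the other alternatives that tested it). Leaving out siControl replicate 1, siControl replicate 3, siNAMPT replicate 1 or siNAMPT replicate 2 also ended the call. It passed the filter on low counts through the siControl libraries.

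**Figure D2:**
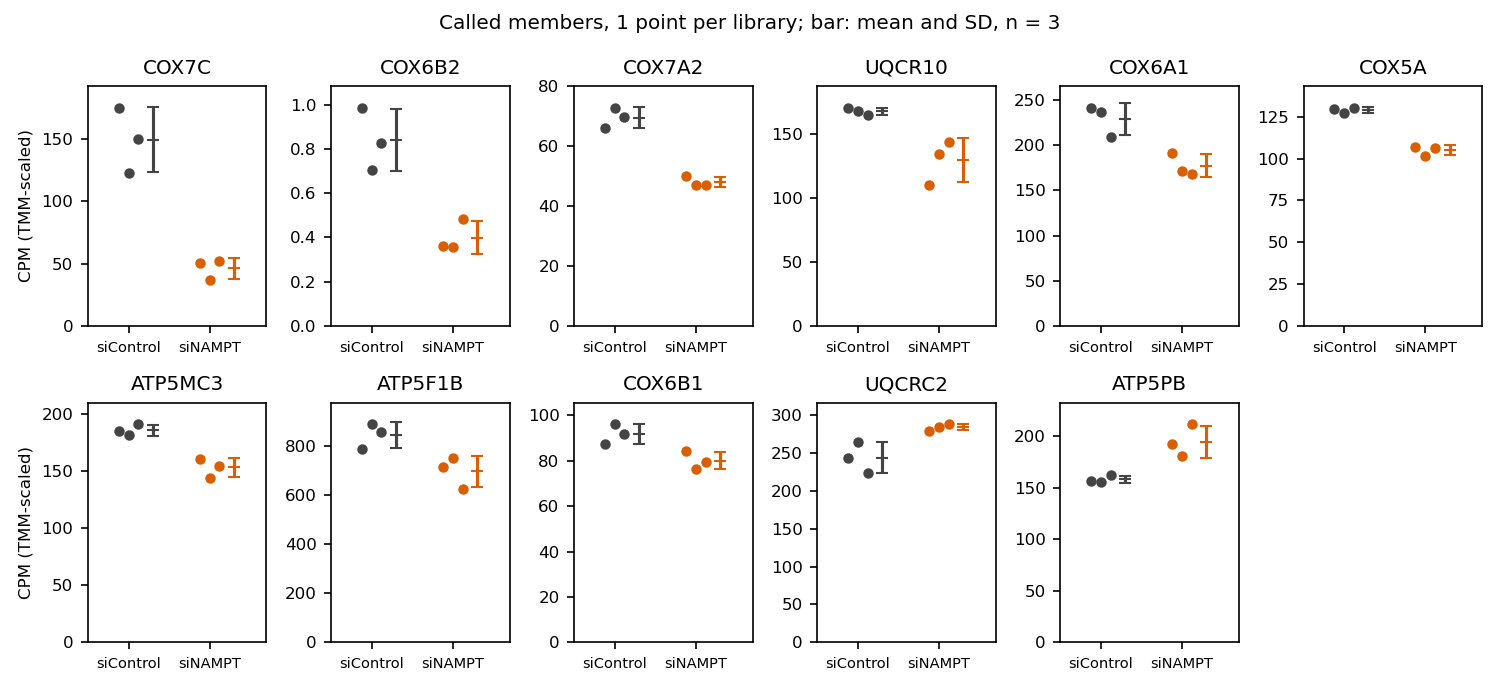
TMM-scaled CPM (vertical axis, from 0) of the 11 called genes in each library, with 1 point per library and the mean and SD (n = 3) beside them, siControl in grey and siNAMPT in orange. The groups do not overlap in any panel; COX7C shows the widest gap, and UQCRC2 and ATP5PB are the risers.

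Complex V had 1 riser and 2 fallers among 18 genes tested (16.7% called, against 42.7% of all genes). ATP5MGL, a copy of ATP5MG, had 1 count in 1 siNAMPT library and none elsewhere. The F1 head, where ATP is made, holds the subunits alpha to epsilon. ATP5F1B, the catalytic beta subunit (ENSG00000110955, chr12:56638175-56646068), was at 788, 890.1 and 858 CPM in siControl and at 716, 751 and 628 CPM in siNAMPT. The groups did not overlap, and the log2 fold change was −0.28 (SE 0.08, adjusted p = 0.0242). Leaving out siControl replicate 2, siControl replicate 3 or siNAMPT replicate 3 ended this call (adjusted p = 0.0562 to 0.0761), as did limma on log2(FPKM + 0.1) (adjusted p = 0.0527). ATP5F1A, the alpha subunit that pairs with it, had 628, 632 and 467 CPM against 589, 570.0 and 389 CPM. Replicate 3 was the low library in both groups, and the log2 fold change of −0.16 had a 95% interval from −0.57 to 0.25. ATP5F1C, the gamma subunit of the rotor shaft, had the smallest SE of the 39 (0.04), with 250.01, 248 and 247 CPM against 253, 259 and 255 CPM (log2 fold change 0.04, 95% interval −0.06 to 0.14). ATP5F1D and ATP5F1E, the delta and epsilon subunits at its foot, had log2 fold changes of −0.07 and 0.02 and overlapped.

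The peripheral stalk holds the head still against the turning rotor. ATP5PB, its b subunit (ENSG00000116459, chr1:111448864-111462773), was at 156, 156 and 162 CPM in siControl and at 192, 181 and 212 CPM in siNAMPT. All siNAMPT libraries were higher, and it rose by 0.30 on the log2 scale (SE 0.07, adjusted p = 0.0098). ATP5PB shares exon bases with WDR77 on the opposite strand, and whether reads were counted by strand is not given in the sources used here; WDR77 went the other way (−0.43, adjusted p = 0.0018). The other stalk subunits were not called. ATP5PF had 60.2, 58.3 and 57.5 CPM against 65.4, 62.2 and 62.4 CPM, without overlap (log2 fold change 0.11, adjusted p = 0.17), and it overlaps GABPA on the opposite strand. ATP5PO, the subunit that caps the head, had 85.2, 84.8 and 86.3 CPM against 85.3, 93.7 and 116 CPM, with siNAMPT replicate 3 well above the rest. ATP5PD stayed at 194 to 209 CPM in siControl and 195 to 199 CPM in siNAMPT.

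The c-ring is built from identical mature subunits encoded by 3 genes. ATP5MC3 (ENSG00000154518, chr2:175176258-175184607) was at 185, 181 and 191 CPM in siControl and 161, 144 and 155 CPM in siNAMPT, and fell by 0.28 on the log2 scale (SE 0.06, adjusted p = 0.0076). ATP5MC1 and ATP5MC2 overlapped between the groups, with log2 fold changes of −0.10 (95% interval −0.26 to 0.05) and 0.07 (95% interval −0.08 to 0.21). Summed over the 3 genes, the level was 334 ± 2.86 CPM in siControl and 299.5 ± 8.56 CPM in siNAMPT (mean ± SD, n = 3 each), without overlap, and the share from ATP5MC3 was 55.7% and 51.1%.

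None of the 5 small subunits of the membrane part was called. ATP5MF, the f subunit, came closest, with 122, 163 and 145 CPM against 173, 172 and 181 CPM. Its groups did not overlap, its siControl libraries were widely spread, and its log2 fold change was 0.29 (SE 0.10, adjusted p = 0.0525, and 0.0175 to 0.129 over the 14 alternatives, of which 4 called it). It overlaps PTCD1 on the same strand, which was lower (−0.23, adjusted p = 0.0222). ATP5ME, the e subunit, had 37.6, 38.4 and 37.4 CPM against 35.5, 30.1 and 34.7 CPM (log2 fold change −0.18, adjusted p = 0.114). ATP5MG, ATP5MD and ATP5MPL had log2 fold changes of 0.04, 0.07 and 0.00, and their groups overlapped. ATP5IF1, which blocks the enzyme from running backwards and splitting ATP, was at 92.2, 83.7 and 86.0 CPM against 100.02, 91.5 and 94.4 CPM, a log2 fold change of 0.13 (95% interval −0.03 to 0.28, not called).

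Sums over each complex put these differences in proportion. The 12 expressed nuclear genes of complex IV summed to 1892 ± 55.3 CPM in siControl and 1615 ± 91.7 CPM in siNAMPT (mean ± SD, n = 3 each). Every siNAMPT library was lower, and the sum was 14.6% lower; without COX7C it was 9.96% lower and still without overlap. The sums of complex III were 1339 ± 48.5 and 1293 ± 11.8 CPM (SD, n = 3 each), and those of complex V were 3217 ± 98.2 and 3075 ± 141 CPM (SD, n = 3 each). Both pairs overlapped. In TPM derived from the deposited FPKM, which divide by gene length, the complex III ratio was 0.899 and its groups were apart, while in CPM it was 0.966.

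**Figure D3:**
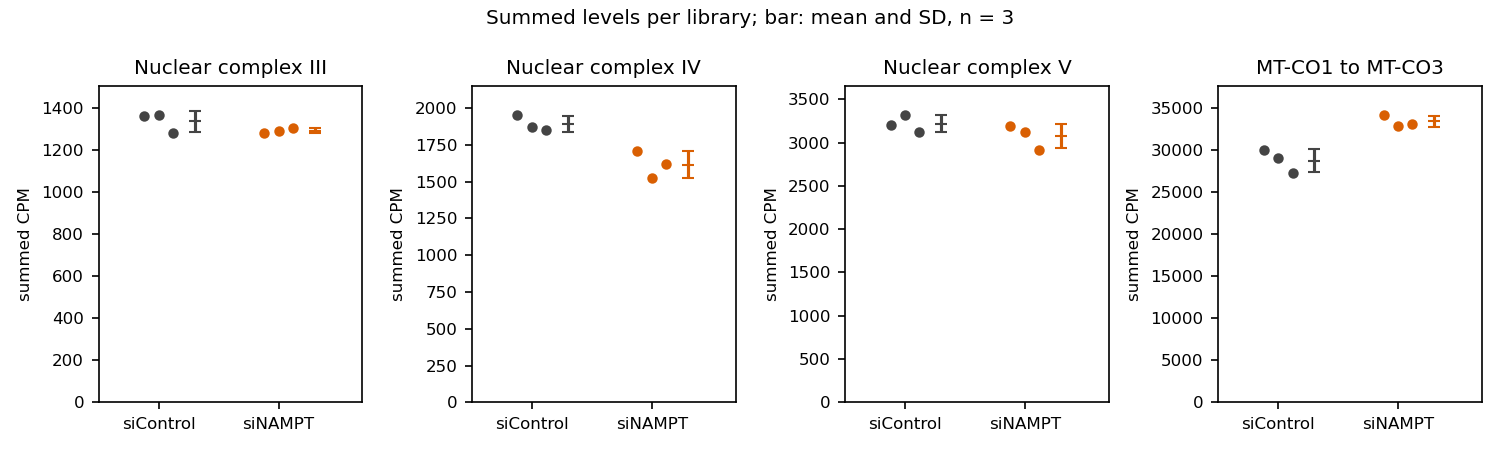
Summed TMM-scaled CPM per library (vertical axes, from 0) over the nuclear genes of complexes III, IV and V and over MT-CO1 to MT-CO3, with the mean and SD (n = 3) beside the points. The complex IV sums are lower in all siNAMPT libraries, those of complexes III and V overlap, and the mitochondrially encoded sum is higher in all siNAMPT libraries.

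The mitochondrially encoded partners were higher. Of the 6 genes 5 rose (83.3% called, against 42.7% of all genes). MT-CYB rose by 0.17, MT-CO1 by 0.25, MT-CO2 by 0.21, MT-CO3 by 0.14 and MT-ATP8 by 0.19 on the log2 scale. MT-CO1, the catalytic subunit of complex IV, had 15990.0, 15486 and 14425 CPM in siControl and 18661, 17973 and 17830.0 CPM in siNAMPT (adjusted p = 0.004). MT-ATP6, the subunit that forms the proton path of complex V, had 912, 893 and 862 CPM against 993, 911 and 1019 CPM and was not called (0.13, adjusted p = 0.0846). With the offset for gene length MT-CYB (adjusted p = 0.259) and MT-CO3 (adjusted p = 0.425) were not called, against lowest values of 0.0129 and 0.0208 in other alternatives. MT-CO3 was also not called without siControl replicate 2 or 3 or without siNAMPT replicate 2 or 3 (adjusted p = 0.0641 to 0.0943), and MT-ATP6 was called without siNAMPT replicate 2 (adjusted p = 0.0287). The sum of MT-CO1 to MT-CO3 was 15.2 ± 0.393 times the sum of the nuclear complex IV genes in siControl and 20.7 ± 0.799 times in siNAMPT (mean ± SD, n = 3 each). This ratio is of CPM, which are not divided by gene length, and is no ratio of transcript numbers. The share of all counts from the mitochondrial genome was 5.86 ± 0.179% in siControl and 6.96 ± 0.0731% in siNAMPT (mean ± SD, n = 3 each), without overlap, and its part in these rises and in the ratio was not tested.

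Levels can be set side by side between genes only per length. Per kilobase of 1 annotated transcript per gene, COX8A had the highest siControl level (1055 CPM per kilobase), followed by COX7B (506), ATP5MF (472), ATP5F1B (460) and COX6A1 (401). The deposited FPKM gave another order, with COX8A at 1047 FPKM and the next, ATP5F1B, at 148. Their implied gene length equals the sum of all distinct annotated exons, overlapping ones counted repeatedly, within 1% for 87.4% of 15145 genes and for 35 of the 40 members with a count. For COX7C that length is 4007 bases although its chosen transcript has 666, and for COX8A it is 507 bases, equal to its transcript. The FPKM of genes with unequal numbers of annotated isoforms are thus on unequal scales, while the length of a gene is the same in all libraries.

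The searched letters occurred both in fallers and in uncalled genes, and no difference was tested. Of 7 fallers with a promoter, 2 held the GABP core, 1 the NRF1 motif and 4 the SP1 box, against 12, 7 and 17 of the 23 uncalled genes. The letters ACCATA, searched because of earlier results of these data, were in the annotated 3′ UTR of 7 of the 39 tested genes (17.9%), against 21.4% of 12469 coding genes. Only UQCR10 and ATP5MC3 among the 9 fallers had them, and COX7C did not. The median 3′ UTR was 223 bases in these genes and 1049 bases over the coding genes, which limits how often any word can occur.

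The rest of the pathway gives the setting. In complex I, which feeds electrons from NADH into the chain, 3 of 37 nuclear subunits rose and 7 fell (27.0% called, against 42.7% of all genes), with a median log2 fold change of −0.05. The largest falls were in NDUFB6 (−1.29), NDUFA5 (−0.69) and the NADH-binding NDUFV1 (−0.55), and the rises included NDUFC1 (0.40) and NDUFB3 (0.30). NDUFB3 was not called with the offset for gene length (adjusted p = 0.148) or without siControl replicate 2 or 3 or siNAMPT replicate 2 or 3 (adjusted p = 0.0744 to 0.106). In complex II only SDHC of 4 subunits was called (25%). It is a membrane anchor and fell by 0.56 on the log2 scale, while SDHA, SDHB and SDHD had values of −0.01, −0.05 and 0.05.

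Assembly factors were called in both directions. The shares called were 33.3% for complex III, 39.3% for complex IV and 16.7% for complex V, against 42.7% of all genes tested. Of 6 for complex III, LYRM7, which guides the Rieske protein, fell by 1.02 and TTC19 fell by 0.26 on the log2 scale, and UQCC1, UQCC2, UQCC3 and BCS1L were not called. Of 28 for complex IV, 3 rose and 8 fell. COX11, which delivers copper, fell by 0.87, COA1 by 0.49 and TACO1, a translational activator of MT-CO1, by 0.48 on the log2 scale. COX20 (0.54), COA5 (0.32) and the haem a synthase COX15 (0.22) rose. Some of these calls rested on single libraries. TTC19 was not called without siControl replicate 1 or 2 or siNAMPT replicate 1 or 3 (adjusted p = 0.0709 to 0.109). COX15 was not called without siControl replicate 1 or 2 or siNAMPT replicate 2 or 3 (adjusted p = 0.0508 to 0.0771), and COA5 when any library but siControl replicate 3 was left out (adjusted p = 0.0783 to 0.125). Of 6 for complex V only FMC1 was called: it was at 5.64, 5.89 and 5.75 CPM in siControl and 13.4, 11.5 and 11.2 CPM in siNAMPT, a rise of 1.06 on the log2 scale. ATPAF1, ATPAF2, TMEM70, TMEM242 and DMAC2L were not called.

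Of 15 nuclear regulators of respiratory genes 13 were tested, 3 rose and 8 fell. That is 84.6% called, against 42.7% of all genes. ESRRA, a nuclear receptor that activates respiratory genes, had 122, 124 and 115 CPM in siControl and 77.2, 46.6 and 47.3 CPM in siNAMPT (log2 fold change −1.07, adjusted p = 0.0034). GABPB2 (−0.61), a partner subunit in GABP, and TFAM (−0.46), which packages mitochondrial DNA and starts its transcription, also fell. GABPA (0.43), YY1 (0.34) and TFB2M (0.26) rose. GABPA and TFB2M were called without siNAMPT replicate 1, but with any other library left out the adjusted p was 0.0746 to 0.122 and 0.0523 to 0.0827. YY1 was called without siControl replicate 1, and otherwise had 0.0585 to 0.141. Protein levels and respiration were not measured in these files.

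**Figure D4:**
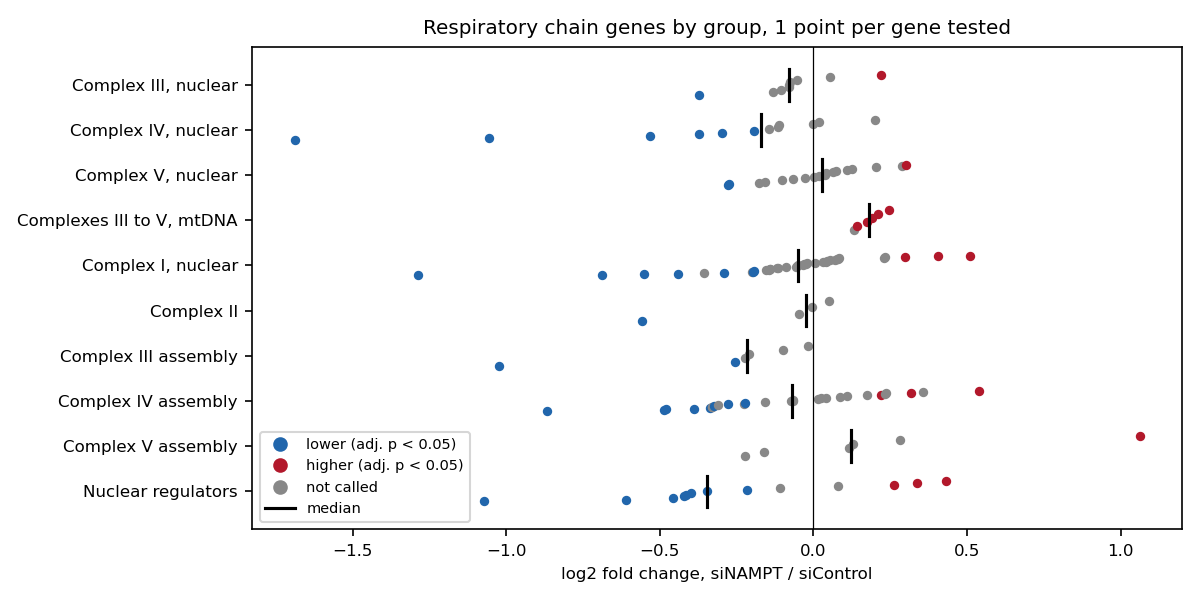
Log2 fold change (siNAMPT over siControl, horizontal axis) of each tested gene in 10 groups of respiratory chain genes, with 1 point per gene, blue for lower, red for higher, grey for not called, and a black bar at each group's median. The medians of nuclear complexes III, IV and V are −0.08, −0.17 and 0.03, and that of the mitochondrially encoded subunits is 0.18.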

How the data were processed

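The sources used here name GRCh38 and mm10 as builds, per the submitters' processing notes; the aligner, the counting program and its use of strand are not given. The authors deposited whole-number counts per gene and library, and FPKM values, per the file headers; FPKM equal the count divided by 1 length per gene and by the library's total. Gene positions are those of the table, and 98.5% of its IDs are in GENCODE 29 (GRCh38), 94.8% of these at the same position.

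R 4.3.3 with edgeR 4.0.16 was used for the gene tests (genes kept by filterByExpr, TMM factors, then glmQLFit and glmQLFTest), siNAMPT against siControl with no other term, two-sided, with Benjamini-Hochberg adjustment over 15213 genes at a threshold of 0.05. The SE is the size of the log2 fold change divided by the root of F. The fit was tested on simulated data. Alternatives were DESeq2 1.42.0, its size factors in edgeR, limma 3.58.1 on log2(FPKM + 1) and log2(FPKM + 0.1) for genes of at least 1 FPKM in 3 libraries, every gene with a count kept, the replicate number as a block, an offset for gene length (spline with 4 degrees of freedom), and each library left out in turn. The length in the offset was that implied by the deposited FPKM. Sums over complexes have no test.

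The genes, the lists beside them and the motifs were chosen with earlier results of these data known. Named were NAMPT, every gene of the rule, every mitochondrially encoded subunit, up to 3 risers and 3 fallers with the largest changes from every other list, and all genes of lists of at most 6; a gene that the rule takes is not reported here. Of the pseudogenes left out by the rule, 3 of 91 were tested. Replicates of a group were not identical, with a chi-square of 11.3 to 16.4 for each gene on average, above sampling noise. Figures used matplotlib 3.10.9 in Python 3.11.15.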

Additional observations from a re-analysis of the deposited data

How the results depend on the processing

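Of the 11 called genes 6 (COX7C, COX7A2, COX6A1, COX5A, ATP5MC3 and ATP5PB) were called in each of the 14 alternative fits, and none of the 11 changed direction. Of the 28 uncalled genes 17 were uncalled in each. The number called was 11 in the reported fit, 17 with the length offset and 17 with the replicate block and length offset together (15 lower in each), and 7 to 13 when a library was left out, with 1 to 3 higher and 6 to 11 lower. Without the filter on low counts 1 gene rose and 8 fell. Deviations of same-numbered libraries had correlations of 0.098, −0.00604 and 0.0802, against −0.125 to 0.0552 between unlike numbers. These small values do not decide whether the numbers mark pairs, and the reported fit takes none. The replicate block gave 12 called genes, 3 higher and 9 lower. It gained ATP5F1A (−0.17, adjusted p = 0.0486) and ATP5MF (0.30, adjusted p = 0.0455) and lost COX6B1 (adjusted p = 0.0793). Of the other genes named, the block ended the calls of NDUFB3 (adjusted p = 0.059), TTC19 (adjusted p = 0.0536) and YY1 (adjusted p = 0.0761). Over all genes 6500 were called, and 5145 to 6593 in the alternatives. The complex III sum ratio of 0.966 became 0.899 in TPM; leaving out a library gave ratios of 0.947 to 0.978 for complex III, 0.830 to 0.878 for complex IV and 0.939 to 0.981 for complex V.

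Changes of sign occurred only among uncalled genes. COX7B (−0.00 as reported) was 0.0011 with DESeq2, 0.0010 with its size factors, and 0.0173 and 0.0175 with limma. ATP5F1C was −0.0186 and −0.0188, and ATP5MD −0.0455 and −0.0448, with the length offset alone and with the block. ATP5MPL was −0.0109 without the filter. With a library left out, the log2 fold change ranged, by gene, as UQCRB −0.0849 to 0.2095, COX7B −0.0289 to 0.0410, COX7A2L −0.0059 to 0.0348, ATP5F1A −0.2864 to 0.0118, ATP5F1E −0.0328 to 0.0917, ATP5PD −0.0532 to 0.0034, ATP5MG −0.0146 to 0.0717, ATP5MPL −0.0437 to 0.0325, NDUFA4 −0.0532 to 0.2002, CYCS −0.0512 to 0.1147. The cause of these changes was not tested. Counting error matters most for COX6B2, with 7 to 21 counts; the other 38 tested genes had at least 30 CPM.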
